A study of Mus musculus with 12 samples.

Results

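Fgf7, Fgf10 and Igf1, growth factors that dendritic epidermal T cells are reported to make, were followed with the receptors Fgfr2 and Igf1r in arrays of non-wounded and wounded mouse epidermal samples. The 5 genes were chosen by name through the RefSeq accession of each probe set, and each had 1 probe set in the values table, which held 1246 probe sets and 909 named genes. By rank among the probe sets of a sample, Fgf7 and Igf1 lay mostly in the lowest part, Fgf10 near or below the middle and the receptors in the upper part, and such ranks also depend on the probes. None of the 5 differed by the test at 2 h or 30 min, and Fgf7 stood far above its other values in a single sample at 2 h.

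Fgf7 and Fgf10 are paracrine fibroblast growth factors that act on epithelia through an epithelial splice form of Fgfr2, with heparan sulfate as a cofactor. Igf1 acts through the tyrosine kinase receptor Igf1r. In mouse skin, dendritic epidermal T cells, the resident gamma-delta T cells of the epidermis, sit among keratinocytes and are known to release such factors on activation. Dermal fibroblasts are also a known source of Fgf7 and Fgf10.

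The wounded samples were 1 array at 0 h, 2 arrays at 30 min, 4 arrays at 2 h and a single array at 4 h. With 4 non-wounded arrays this made 12, and the titles carry the name B6. No treatment other than wounding is named, and neither the age of the mice nor any pooling is given in the sources used here. The labels call the material dendritic epidermal T cells, while the design text plans whole epidermis. Of 15 T cell markers 5 were measured, and in non-wounded samples 3 of them averaged under 4 on the log2 scale. The median of all probe sets in those samples lay between 3.94 and 4.26, so 4 was near the middle. Among the 3 markers were the activating receptor Klrk1 at 2.38 ± 0.12 and the activation antigen Cd69 at 2.47 ± 0.17 (SD, n = 4). The other 2 were the integrin Itgae at 5.32 ± 0.11 and the adhesion receptor Cd2 at 4.77 ± 0.22. The probe sets of the T cell receptor complex were not among those named. Of 11 keratinocyte markers 4 were measured and all 4 averaged above 4, between 6.60 ± 0.58 for the interleukin 1 antagonist Il1rn and 12.08 ± 0.27 for the galectin Lgals7 (SD, n = 4). In such bulk RNA, fewer cells of a type and less RNA per cell cannot be told apart.

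Each time holds 1 sample with the replicate number 1, and these 5 had a narrower spread of values than the 7 others. Over all probe sets, 26.3% were higher in all 5 than in all 7, and 17.6% were lower in all 5. The 3 growth factors lay higher and the 2 receptors lower in the samples numbered 1. The direction did not follow class throughout the families, as the receptor Fgfr1 differed by 0.65 and the listed FGF Fgf13 by -2.04. Fgf7, Fgf10 and Igf1 averaged 3.24, 4.06 and 3.21 in the samples numbered 1, against 2.43, 3.25 and 2.42 in the others. Fgfr2 and Igf1r averaged 8.51 and 5.75 in the samples numbered 1, against 10.29 and 7.84 in the others. For each of the 5 genes the 2 sets did not overlap. Because the 0 h and 4 h times hold only a sample numbered 1, each course is given separately for the 2 sets, and ranks within a sample are given beside the log2 values.

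Fgf7, known as keratinocyte growth factor, was dim in all samples but 1. In the samples numbered 1 its log2 value was 2.92 without wounding, 2.79 at 0 h, 3.07 at 30 min, 4.52 at 2 h, then 2.91 at 4 h. In the other samples it was 2.45, 2.38 and 2.30 without wounding, 2.41 at 30 min, and 2.48, 2.50 and 2.49 at 2 h. The value of 4.52 stood alone, and the remaining 11 lay between 2.30 and 3.07. By rank, Fgf7 stood at the 56.3 percentile of the probe sets of that sample, and between the 6.94 and 14.2 percentiles in the rest.

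The mean of Fgf7 at 2 h was 3.00 ± 1.02, against 2.51 ± 0.28 in non-wounded samples (SD, n = 4 each). The log2 difference was 0.49 ± 0.45 (SE; 95% interval -0.51 to 1.49; limma adjusted p = 0.998). Leaving out 2 h replicate 1 turned it to -0.02, and in the samples numbered 2 to 4 alone it was 0.11 (95% interval -0.07 to 0.30). Within same-number pairs Fgf7 was higher at 2 h in 4 of 4, by 1.61, 0.03, 0.12 and 0.19 for numbers 1 to 4, a pattern that 13.4% of all probe sets shared. After all samples were brought to a common median and SD these became 1.78, 0.0043, -0.012 and -0.059, so 2 of 4 were higher. The difference of 1.61 was the third highest of 1246 probe sets between those 2 samples, after the EGF family ligand Hbegf (1.86) and the chemokine Ccl20 (1.65), so that 0.241% of probe sets reached it. Hbegf and Ccl20 were higher in every other pair as well, by at least 3.07 and 3.60. Fgf5, another dim ligand, was likewise 1.43 higher in the pair numbered 1 and at -0.19, 0.02 and -0.07 in the others. Hbegf was chosen as a known riser in these data, and Ccl20 and Fgf5 were singled out after their values were seen. Dermal fibroblast markers were measured beside Fgf7: 9 of 13 had a probe set, and 5 of the 9 averaged under 4. The median of all probe sets in the non-wounded samples lay between 3.94 and 4.26. Of the 9 markers, 8 were higher at 2 h, beside 54.5% of all probe sets, and none passed the test. Their median difference was 0.15, beside 0.03 over all probe sets. At 30 min 8 of the 9 were also higher, beside 53.8% of all probe sets, with a median of 0.25 beside 0.04. Their summed linear level was 152 to 179 in non-wounded samples, 218 at 0 h, 180 to 217 at 30 min, 180 to 214 at 2 h and 221 at 4 h. The 0 h and 4 h sums are those of samples numbered 1 alone. Whether dermal fibroblast content bears on the high Fgf7 value at 2 h was not tested.

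**Figure D1:**
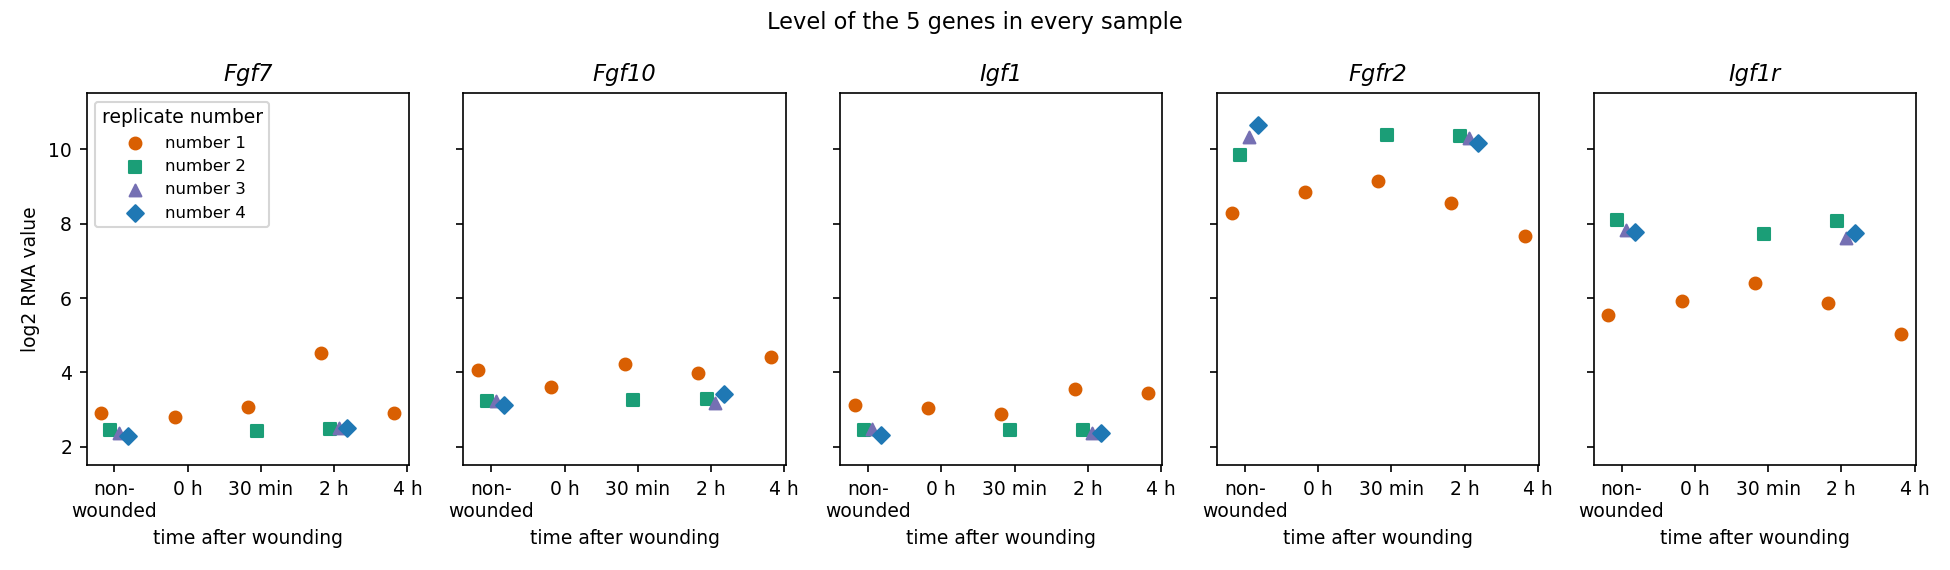
Log2 RMA value (y axis) of the 5 genes in every sample by time after wounding (x axis), with the marker showing the replicate number. The 3 ligands sit between 2.30 and 4.52 and the 2 receptors between 5.03 and 10.66, and the samples numbered 1 (circles) stand above the others for ligands and below them for receptors.

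Fgf10, the other ligand of this receptor form, ranked at or below the 53.2 percentile in every sample. In the samples numbered 1 its log2 value was 4.05 without wounding, 3.60 at 0 h, 4.22 at 30 min, 3.99 at 2 h, then 4.42 at 4 h. Elsewhere it was 3.23, 3.23 and 3.13 without wounding, 3.25 at 30 min, and 3.29, 3.17 and 3.42 at 2 h. Among the samples numbered 2 to 4 the 2 h values overlapped the non-wounded ones. The lowest rank was the 28.6 percentile and the highest stood at 4 h. Against the non-wounded mean the difference at 2 h was 0.06 ± 0.30 (SE; 95% interval -0.61 to 0.73; limma adjusted p = 0.998), and at 30 min 0.33 ± 0.37 (-0.49 to 1.15; adjusted p = 0.774).

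Igf1, the secreted ligand of Igf1r, ranked between the 6.78 and 29.3 percentiles of a sample. The log2 values in the samples numbered 1 were 3.12 without wounding, 3.05 at 0 h, 2.88 at 30 min, 3.56 at 2 h, then 3.45 at 4 h. In the remaining samples they were 2.44, 2.47 and 2.33 without wounding, 2.45 at 30 min, and 2.46, 2.37 and 2.38 at 2 h. The 7 samples numbered 2 to 4 spanned 0.144 on the log2 scale, the smallest span of the 5 genes. The difference at 2 h was 0.10 ± 0.30 (SE; 95% interval -0.58 to 0.78; limma adjusted p = 0.998), or -0.01 (-0.20 to 0.18) in the samples numbered 2 to 4 alone.

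Fgfr2, the receptor of Fgf7 and Fgf10, ranked near the top of every sample. Its log2 value in the samples numbered 1 was 8.30 without wounding, 8.84 at 0 h, 9.16 at 30 min, 8.55 at 2 h, then 7.68 at 4 h. In the others it was 9.85, 10.34 and 10.66 without wounding, 10.37 at 30 min, and 10.36, 10.29 and 10.18 at 2 h. The level was lower in every sample numbered 1. By rank Fgfr2 stood between the 95.5 and 98.6 percentiles there, and between the 97.3 and 99.2 percentiles in the others. The means were 9.85 ± 0.87 at 2 h and 9.78 ± 1.05 without wounding (SD, n = 4 each), a difference of 0.06 ± 0.58 (SE; 95% interval -1.24 to 1.37; limma adjusted p = 0.998). In the samples numbered 2 to 4 alone the 95% interval was -0.47 to 0.47. At 30 min Fgfr2 was higher than in the non-wounded sample of the same number in both pairs, by 0.86 and 0.53. This gave -0.02 (95% interval -1.62 to 1.58) without the replicate number as a block and 0.53 (-0.03 to 1.09) with it, with a limma adjusted p of 0.988 and 0.458. In the samples numbered 2 to 4 alone, with 1 sample at 30 min, the difference was 0.09. That 30 min value (10.37) lay within the non-wounded range of numbers 2 to 4 (9.85 to 10.66). The share of all probe sets higher in both 30 min pairs was not counted. Whether the probe set reads the epithelial splice form is not given in the sources used here.

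Igf1r, the receptor of Igf1, ranked above the median of every sample. Its log2 value was 5.54 without wounding, 5.93 at 0 h, 6.40 at 30 min, 5.87 at 2 h, then 5.03 at 4 h in the samples numbered 1. In the others it was 8.09, 7.83 and 7.77 without wounding, 7.73 at 30 min, and 8.07, 7.62 and 7.76 at 2 h. Ranks ran from the 66.9 to the 87.6 percentile in the samples numbered 1 and from the 86.4 to the 89.6 percentile in the others. At 2 h the difference from non-wounded samples was 0.02 ± 0.66 (SE; 95% interval -1.45 to 1.49; limma adjusted p = 0.998), or -0.08 (-0.43 to 0.27) in the samples numbered 2 to 4 alone. At 30 min it was -0.24 ± 0.81 (-2.05 to 1.56; adjusted p = 0.914).

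**Figure D2:**
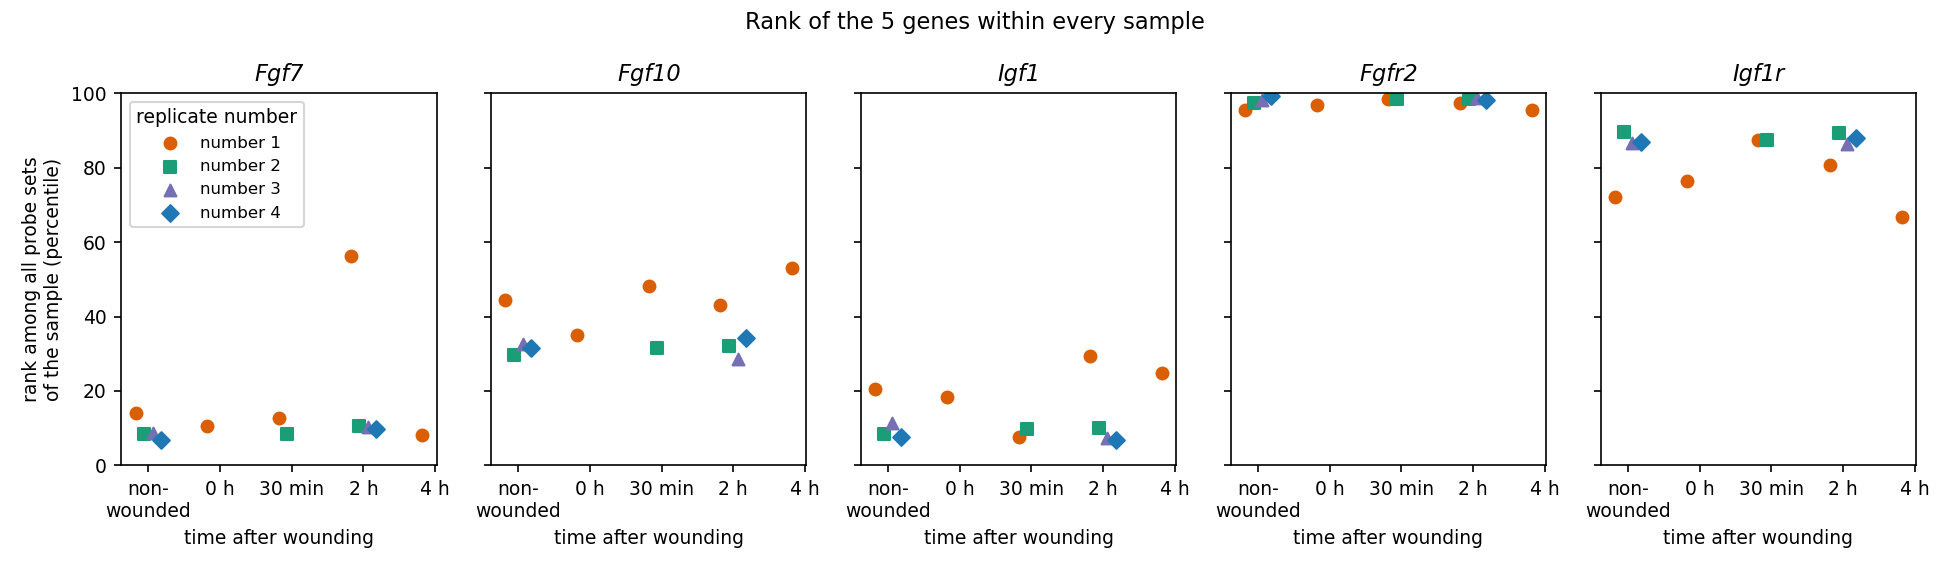
Rank of the 5 genes among the 1246 probe sets of each sample, as a percentile (y axis), by time after wounding (x axis), with the marker showing the replicate number. Fgfr2 stays at or above the 95.5 percentile in all 12 samples, and Fgf7 leaves the lowest 14.2 percent in 1 sample at 2 h.

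The order of the times is given by group mean. The 0 h and 4 h means are each 1 sample numbered 1, and the 3 ligands lay higher in the samples numbered 1. Among those samples, all 3 were lower at 0 h than without wounding. The values were 2.79 against 2.92 for Fgf7, 3.60 against 4.05 for Fgf10 and 3.05 against 3.12 for Igf1. At 4 h Fgf10 (4.42) and Igf1 (3.45) were higher there, and Fgf7 (2.91) was not. For Fgf7 the group means ran, from low to high, non-wounded (2.51), 30 min (2.74), 0 h (2.79), 4 h (2.91) and 2 h (3.00), with every step between neighbours smaller than the SD of 0.28 among non-wounded samples. Fgf10 ran non-wounded (3.41), 2 h (3.47), 0 h (3.60), 30 min (3.74) and 4 h (4.42), where the last step alone exceeded the non-wounded SD of 0.43 but not the 30 min SD of 0.69. Igf1 ran non-wounded (2.59), 30 min (2.67), 2 h (2.69), 0 h (3.05) and 4 h (3.45), with a non-wounded SD of 0.36 that the last step alone exceeded, while it stayed under the 2 h SD of 0.58. The receptor means were lowest at 4 h and 0 h, which hold a sample numbered 1 alone. Within the samples numbered 1, 0 h was above non-wounded for both, as given above, and 4 h was lowest. After all samples were brought to a common median and SD, 4 h was still lowest. Fgfr2 was then 8.49 at 4 h against 8.63 without wounding, and Igf1r 5.09 against 5.59. Fgfr2 ran 4 h (7.68), 0 h (8.84), 30 min (9.76), non-wounded (9.78) and 2 h (9.85). Its lowest step exceeded the non-wounded SD of 1.05, and no other step did. Igf1r ran 4 h (5.03), 0 h (5.93), 30 min (7.06), non-wounded (7.31) and 2 h (7.33), and each step was under the non-wounded SD of 1.19.

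The 0 h and 4 h samples had no replicate and are described without a test, as differing where they lay outside the non-wounded range and 1 or more from its mean. At 0 h none of the 5 genes did, against 0.963% of probe sets above and 5.38% below, and none reached 1 against the non-wounded sample numbered 1 (0.321% above and 0.562% below). At 4 h Fgf10 was 1.01 higher, Fgfr2 2.10 lower and Igf1r 2.28 lower, against 6.18% of probe sets above and 17.3% below. Set against the non-wounded sample numbered 1, these differences became 0.37, -0.62 and -0.51, and none of the 5 genes reached 1 (background 3.29% above and 8.51% below). Hbegf was 2.37 higher at 4 h against that same sample. After scaling to a common median and SD, Fgf10, Fgfr2 and Igf1r differed from it by 0.37, -0.14 and -0.49. The direction at 0 h turned with the choice of non-wounded sample, with Fgfr2 at -0.94 and 0.54, and Igf1r at -1.38 and 0.39, against the mean and against number 1.

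No member passed the limma test in any of the 3 replicated comparisons, whether the replicate block was used or not, nor when the samples numbered 2 to 4 stood alone. In that last fit 30 min is 1 sample, which is assumed to vary like the other groups, so its comparisons have no replicate check at 30 min. At 2 h against non-wounded, 0.241% of all probe sets passed, 1.36% with the block and 3.05% in the samples numbered 2 to 4. At 30 min none did in any of these fits, and 63 probe sets (5.06%) had an unadjusted p under 0.05. The same test set 2 h against 30 min, where 0 of 1246 passed, with 27 (2.17%) at an unadjusted p under 0.05 and 2 (0.161%) passing in the samples numbered 2 to 4. In that comparison the log2 differences of the 5 genes ran from -0.27 for Fgf10 to 0.26 for Igf1r. Hbegf, included because it was already known to rise at 2 h in these samples, rose by 3.18 ± 0.47 against non-wounded (SE, limma adjusted p = 0.0376).

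The other ligands and receptors of both families were spread over the range, with ligands and receptors at overlapping ranks. All 22 genes of the FGF ligand list were measured and are counted as ligands here and below. The list also holds Fgf11, Fgf12, Fgf13 and Fgf14, which are intracellular members. Of the 22, 16 lay below the median of all probe sets in the samples numbered 2 to 4 and 10 below the 25 percentile. The brightest were Fgf13, an intracellular member that is not secreted, at 6.16, and Fgf22, a ligand that keratinocytes make in mouse skin, at 6.15. Of 4 measured FGF receptors, Fgfr2 and Fgfr3 lay above the 95 percentile at 10.29 and 9.65. Fgfr1 lay at 4.19 and Fgfr4 at 3.11, the 51.7 and 27.4 percentiles. Among the 12 IGF genes, the secreted binding proteins Igfbp2 and Igfbp3 were the brightest at 9.45 and 9.31, while the ligand Igf2 was at 6.26 and Igf2r, which takes Igf2 to lysosomes, at 6.39. These are probe set levels, which also depend on the probes.

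**Figure D3:**
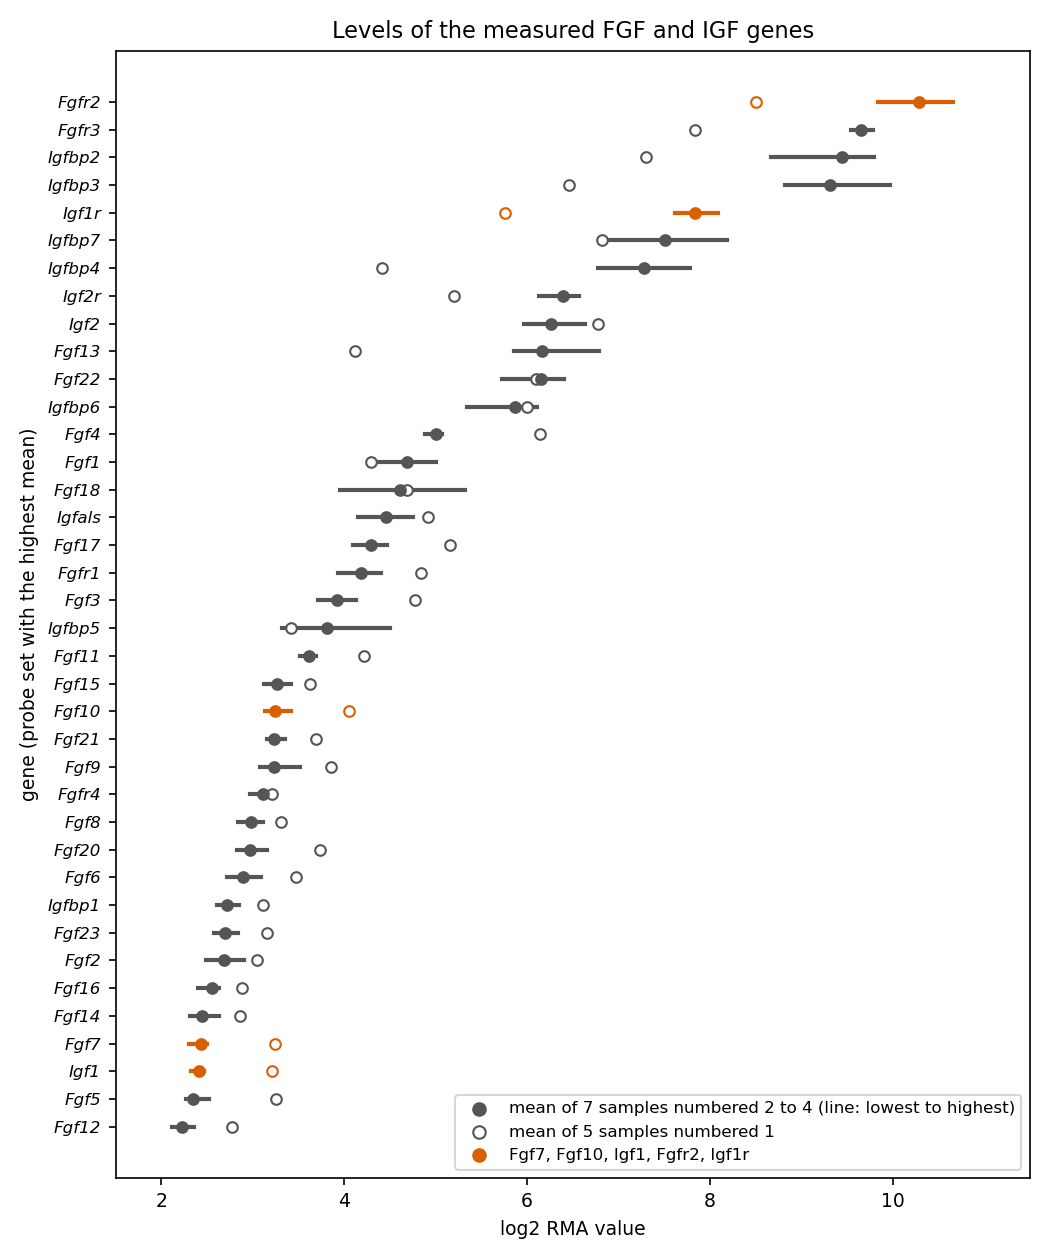
Log2 RMA value (x axis) of the 38 measured FGF and IGF genes (y axis, ordered by level), with filled points for the mean of the 7 samples numbered 2 to 4, lines from their lowest to their highest value, and open points for the mean of the 5 samples numbered 1. Fgfr2 heads the order at 10.29 and Igf1 (2.42) and Fgf7 (2.43) stand near its low end.

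None of the 38 FGF and IGF genes passed the test in the 3 comparisons, with or without the block. For the FGF ligands the median log2 difference at 2 h was 0.10, with 15 of 22 higher, beside a median of 0.03 and 54.5% higher over all probe sets. At 30 min their median was 0.20 with 16 of 22 higher, beside 0.04 and 53.8% over all probe sets. In the samples numbered 2 to 4 alone the ligand medians were 0.084 at 2 h and 0.068 at 30 min. The IGF genes had a median of 0.11 at 2 h with 9 of 12 higher, and of -0.01 at 30 min with 6 of 12 higher. The 4 receptors had medians of 0.02 and -0.05, with 2 and 1 of 4 higher. For 2 h against 30 min the medians were -0.20 for the ligands with 7 of 22 higher, 0.05 for the receptors with 3 of 4 and 0.07 for the IGF genes with 8 of 12, beside 0.01 and 50.6% over all probe sets. The samples numbered 2 to 4 alone turned the sign for the ligands (0.033) and the receptors (-0.019) and gave 0.13 for the IGF genes.

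Fgf22 and Igfbp3 differed in the same direction in all 4 pairs at 2 h without passing the test. Fgf22 had log2 values of 5.54, 5.95, 6.09 and 5.73 at 2 h, against 6.97, 6.39, 6.41 and 6.12 in the non-wounded samples numbered 1 to 4. These groups did not overlap, as for 2.73% of all probe sets on the lower side, and Fgf22 was the only one of the 38 genes so placed. None of the 38 lay wholly higher at 2 h, as did 2.01% of all probe sets. The difference was -0.64 ± 0.22 (SE; 95% interval -1.14 to -0.15; limma adjusted p = 0.707, with an unadjusted p of 0.0164 and 4.65% of all probe sets under 0.05), while the adjusted p was 0.227 with the block and 0.185 among samples numbered 2 to 4. Igfbp3, which binds IGFs outside the cell, had 7.20, 9.73, 9.19 and 9.97 at 2 h, against 5.85, 8.82, 8.99 and 9.08 in the non-wounded samples numbered 1 to 4. The groups overlapped because number 1 lay lower in both, and every pair was higher at 2 h. The difference was 0.84 ± 1.01 (limma adjusted p = 0.998), with a 95% interval of -1.42 to 3.09 without the block and 0.29 to 1.38 with it (adjusted p = 0.17). In all, 8 of the 38 genes were higher and 1 was lower in 4 of 4 pairs, against 13.4% and 11.6% of all probe sets. Igf2 had a difference of 0.17 ± 0.24, and 0.44 in the samples numbered 2 to 4 (limma adjusted p = 0.998 and 0.0763).

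**Figure D4:**
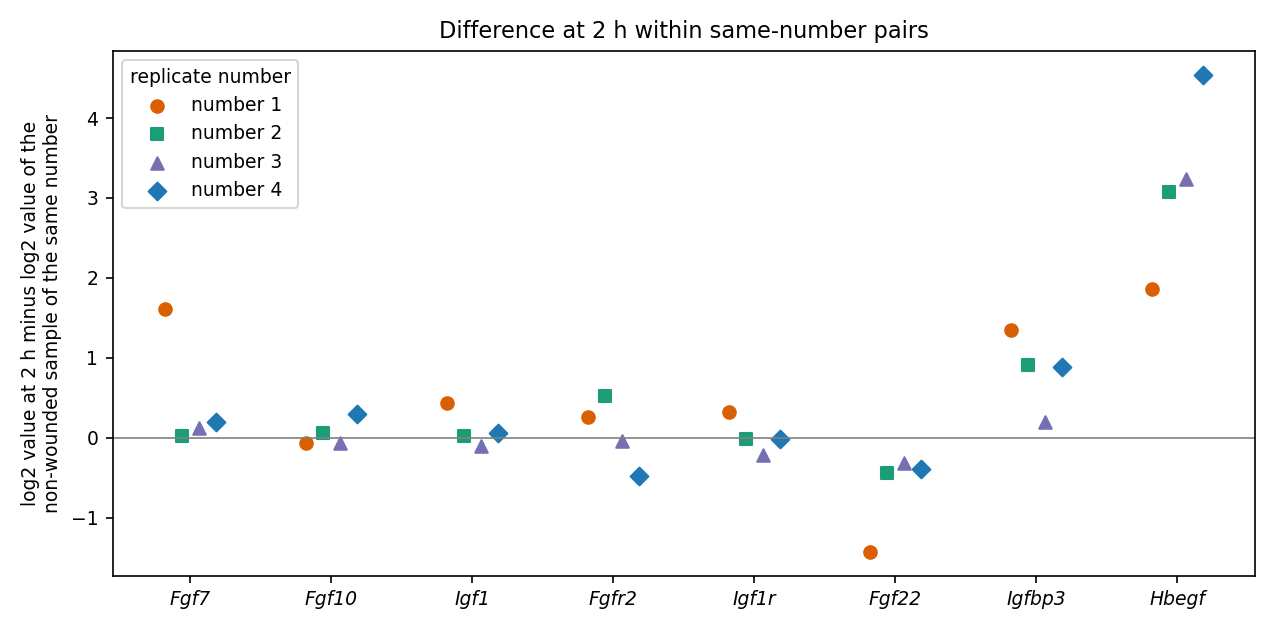
Log2 value at 2 h minus the log2 value of the non-wounded sample with the same number (y axis) for the 5 genes, Fgf22, Igfbp3 and Hbegf (x axis), with 1 point per pair. Hbegf is above 0 by 1.86 to 4.54, Fgf7 is high in the pair numbered 1 alone, and Fgf22 is below 0 in all 4 pairs.

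At 30 min the smallest p of the FGF lists belonged to Fgf20 and Fgfr1, and neither passed. Fgf20, a ligand known from inner ear development, was at 4.10 and 3.14 at 30 min, against 2.99, 2.83, 2.91 and 2.85 in non-wounded samples, with no overlap, as for 2.49% of all probe sets on the higher side. Its difference was 0.73 ± 0.33 (SE; limma adjusted p = 0.735). Fgfr1, the receptor widely used by mesenchymal cells, had 5.90 and 4.35 at 30 min, against 4.41, 4.16, 4.00 and 3.93. Its difference was 1.00 ± 0.38 (limma adjusted p = 0.735, and 0.432 with the block). Without 30 min replicate 2, which leaves the sample numbered 1 alone to stand for 30 min, it was 1.77 (limma adjusted p = 0.0375), with the spread taken from the other groups. Fgfr1 was higher in all 5 samples numbered 1 than in the 7 others. The samples numbered 2 to 4 alone gave a difference of 0.32 (limma adjusted p = 0.976), again with 1 sample at 30 min.

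Heparan sulfate, the cofactor of FGF binding, was covered by 28 of 29 listed synthesis and editing enzymes and 12 of 13 core proteins. None passed in the 3 comparisons. Of all probe sets, 0.241% passed at 2 h against non-wounded, 0 at 30 min and 0 for 2 h against 30 min. The enzymes had a median difference of -0.11 at 2 h with 19 of 28 lower, and of -0.38 at 30 min with 18 of 28 lower. Over all probe sets the medians were 0.03 and 0.04, with 54.5% and 53.8% higher. The samples numbered 2 to 4 alone gave enzyme medians of -0.06 and -0.07, beside 0.03 and -0.01 over all probe sets. Their smallest p at 2 h was that of the 3-O-sulfotransferase Hs3st6 (-1.05 ± 0.37 SE; limma adjusted p = 0.707). At 30 min it was that of the heparan sulfate degrading enzyme Hpse (-0.63 ± 0.23; 0.735), and between 2 h and 30 min that of the endosulfatase Sulf2 (0.49 ± 0.25; 0.98). Among the core proteins the smallest p belonged to the syndecan Sdc2 at 2 h (-0.36 ± 0.24; limma adjusted p = 0.998) and to the glypican Gpc1 at 30 min (-1.44 ± 0.60; 0.735) and between 2 h and 30 min (0.96 ± 0.60; 0.98).

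Other products reported from these T cells were also measured. Of 10 listed cytokines and chemokines 9 were measured, and 7 averaged under 4 in non-wounded samples, where the median of all probe sets was 3.94 to 4.26. Of the 9, 0 passed in the 3 comparisons. Of all probe sets, 0.241% passed at 2 h against non-wounded and 0 in either comparison with 30 min. Xcl1, a chemokine for cross-presenting dendritic cells, had the smallest p in each, with -0.42 ± 0.34 at 2 h (SE; limma adjusted p = 0.998), -1.25 ± 0.42 at 30 min (0.735) and 0.83 ± 0.42 for 2 h against 30 min (0.98). Of 11 other measured growth factors of wounded skin, Hbegf alone rose at 2 h, against 0.241% of all probe sets called. In the samples numbered 2 to 4 alone 4 rose (3.05% of all called). With the block 3 rose (1.36% of all called), namely Hbegf, the EGF family ligand Areg and the angiogenic factor Vegfa (limma adjusted p = 0.00953, 0.0297 and 0.0265). At 30 min the smallest p in that list was that of the platelet-derived subunit Pdgfb (-0.69 ± 0.29; limma adjusted p = 0.735).

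The probe sets most like each gene were ranked by Pearson correlation over the 7 samples numbered 2 to 4 among 962 other named probe sets, as a description. The 3 ligands vary little over these samples, and the non-wounded and 2 h samples share replicate numbers. Nearest to Fgf7 were the chemokine Cxcl10 (r = 0.994, Spearman rho = 1.00), the hedgehog ligand Dhh (0.966 and 0.929) and the chemokine Ccl4 (0.961 and 0.964), over an Fgf7 range of 0.201. Fgf10 lay nearest to the lectin Cd209e (0.939 and 0.964), Ifnab (0.938 and 0.964) and B3gnt6 (0.931 and 0.893). Igf1 lay nearest to Ihh (0.936 and 0.75), Rpn1 (0.89 and 0.857) and Jag1 (0.88 and 0.714). Nearest to Fgfr2, over a range of 0.810, were the galactosyltransferase Ggta1 (0.971 and 0.857), Pcbp1 (0.962 and 0.679) and Ugdh (0.959 and 0.75). Igf1r lay nearest to the nucleotide sugar transporter Slc35a1 (0.919 and 0.964), the lysosomal mannosidase Man2b1 (0.918 and 0.893) and Cxcr2 (0.911 and 0.893).

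Promoter windows of 300 bases around the start that RefSeq gives on GRCm38.p6 were read for all 5 genes to set their base composition beside their level. The windows of Fgf7, the ligand with the single high value, and of both receptors are shown 5′ to 3′, with each CG dinucleotide in capitals. The Fgf7 window is at chr2:126034408-126034707 on the plus strand, that of Fgfr2 at chr7:130266759-130267058 on the minus strand, and that of Igf1r at chr7:67952007-67952306 on the plus strand.
Fgf7: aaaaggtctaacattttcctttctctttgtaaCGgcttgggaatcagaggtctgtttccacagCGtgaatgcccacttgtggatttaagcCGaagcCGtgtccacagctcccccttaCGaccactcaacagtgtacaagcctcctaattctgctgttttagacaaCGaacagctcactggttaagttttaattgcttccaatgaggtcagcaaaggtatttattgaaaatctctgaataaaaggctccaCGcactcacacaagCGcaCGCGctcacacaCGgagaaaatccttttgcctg
Fgfr2: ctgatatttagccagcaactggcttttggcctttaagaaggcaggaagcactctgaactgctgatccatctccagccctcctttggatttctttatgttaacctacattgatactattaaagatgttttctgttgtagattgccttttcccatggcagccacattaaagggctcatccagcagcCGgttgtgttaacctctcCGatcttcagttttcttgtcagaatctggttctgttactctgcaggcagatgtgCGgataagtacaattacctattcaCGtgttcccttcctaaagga
Igf1r: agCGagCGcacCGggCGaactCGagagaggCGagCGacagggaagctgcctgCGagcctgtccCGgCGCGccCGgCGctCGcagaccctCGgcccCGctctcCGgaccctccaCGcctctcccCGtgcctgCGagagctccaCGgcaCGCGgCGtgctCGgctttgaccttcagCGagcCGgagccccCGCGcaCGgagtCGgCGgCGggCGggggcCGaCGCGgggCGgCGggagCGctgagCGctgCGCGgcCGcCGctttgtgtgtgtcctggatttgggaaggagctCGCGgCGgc
The windows held 11 CG in Fgf7, 4 in Fgfr2 and 48 in Igf1r, which placed 58.6%, 31.4% and 98.8% of the 32851 RefSeq windows below them. Fgf10 held 10 and Igf1 held 6. The 2 receptors thus had the lowest and the highest count of the 5. The motif TATAAA, searched on both strands, was in none of the 5 windows and in 13.6% of all. The pattern TGANTCA, where N is any base, was in that of Igf1, 1 time as TGAATCA, and in 7.81% of all. Each gene had 1 window in the table, and other start sites were not used here.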

How the data were processed

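Total RNA from 12 samples was taken up in Trizol and turned into biotinylated cRNA for Affymetrix arrays, per the labels' protocols. The authors deposited 1 table of 1246 probe sets, whose values are on a log2 scale. The submitters' processing notes name RMA, which corrects background, normalizes and summarises probes. The array's name and any filter were not found in the labels. No detection calls come with the values, and precision is limited by how many arrays there are.

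Probe sets were named by unversioned RefSeq accession from a table of GRCm38.p6: 963 matched 1 symbol and 283 none. A gene was represented by its probe set with the highest mean. Since nothing in the labels ties replicates to separate mice, a p-value here reflects only how these samples vary, possibly for technical reasons.

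The test was limma 3.58.1 (R 4.3.3) with group means over all 12 samples, with Benjamini-Hochberg adjustment over 1246 probe sets at 0.05. Same-number 2 h and non-wounded samples deviated together from their group means across probe sets (r = 0.796, 0.449, 0.651 and 0.297 for numbers 1 to 4, above the limit of 0.1), so the replicate number was also fitted as a block. Alternatives were quantile normalization, one common median and SD for every sample, a filter under the 25 percentile of mean level, the samples numbered 2 to 4 alone, only the groups compared, an intensity trend with a robust prior, and leaving out each sample. The fits were tested on simulated data. The genes, the lists and the named genes (the 5 genes, the FGF and IGF lists, called or lowest-p members of other lists, Hbegf, and the 3 most alike probe sets) were chosen with earlier results of these data known. Figures used matplotlib 3.10.9 in Python 3.11.15.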

Additional observations from a re-analysis of the deposited data

Results flagged for a closer look

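Among the probe sets of the FGF and IGF lists and Hbegf, 86 groups of 4 were examined, and in 24 of them 1 sample stood far from the other 3 by Dixon's 95% limit. Chance gives such a gap in about 1 of 20 groups if groups are independent, but these share the same arrays. The same count over all probe sets was not made. Of all probe sets, 26.3% were higher and 17.6% lower in all 5 samples numbered 1 than in the 7 others. The count of 24 is thus not a trait shown for these genes. In 23 of the 24 groups the sample that stood apart was numbered 1. At 2 h these log2 values were 4.52 for Fgf7, 3.56 for Igf1, 8.55 for Fgfr2, 7.76 for Fgfr3, 3.55 for Fgf15, 3.66 for Fgf13, 6.21 for Fgf4, 4.13 for Fgf5, 3.84 for Igfbp4, 3.08 for Fgf9, 3.67 for Fgf23 and 2.91 for Fgf16. In non-wounded samples they were 4.05 for Fgf10, 5.54 for Igf1r, 7.81 for Fgfr3, 5.85 for Igfbp3, 2.81 for Fgf12, 5.95 for Fgf4, 3.32 for Fgf6, 3.53 for Fgf21, 3.06 for Fgf14, and 3.16 and 3.83 for 2 probe sets of Fgf9. The exception was Igfbp6 at 5.34 in non-wounded sample number 4.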

How the results depend on the processing

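No fit called any of the 5 genes, and the sign of their differences often turned with the setting. The count of called probe sets at 2 h against non-wounded was 3, and 17 with the replicate block, 7 after quantile normalization, 8 with an intensity trend and robust prior, 38 in the samples numbered 2 to 4, and 0 to 11 when 1 sample was left out, the 11 without 2 h replicate 1. For 30 min it was 0, and 0 to 74 on leaving out a sample, the 74 without 30 min replicate 2. For 2 h against 30 min it was 0, and 1 after scaling, 2 after quantile normalization, 2 in the samples numbered 2 to 4, and 0 to 9 on leaving out a sample, the 9 without 2 h replicate 1 and 3 without 30 min replicate 2. The cause of these changes was not tested. Against non-wounded number 1 alone, 11 probe sets were past the fold at 0 h in place of 79, and 147 at 4 h in place of 292.

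With the replicate block, signs turned at 30 min against non-wounded for Fgf7 (-0.11), Igf1 (-0.18), Fgfr2 (0.53) and Igf1r (0.18), and at 2 h against 30 min for Fgfr2 (-0.47) and Igf1r (-0.16), and the block changed no call among the FGF and IGF genes. After scaling, which moved the median of all probe sets at 30 min to -0.09 in place of 0.04, signs turned at 2 h for Fgf10 (-0.052) and Igf1 (-0.016), at 30 min for Fgf7 (-0.072), Igf1 (-0.26), Fgfr2 (0.72) and Igf1r (0.089), and at 2 h against 30 min for Fgfr2 (-0.46) and Igf1r (-0.013). After quantile normalization they turned at 2 h for Fgf10 (-0.0070), at 30 min for Igf1 (-0.12), Fgfr2 (0.34) and Igf1r (0.35), and at 2 h against 30 min for Fgfr2 (-0.13) and Igf1r (-0.14). In the samples numbered 2 to 4 they turned at 2 h for Igf1 (-0.0075) and Igf1r (-0.081), at 30 min for Fgfr2 (0.092), and at 2 h against 30 min for Fgf10 (0.042), Igf1 (-0.046) and Fgfr2 (-0.091).

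On leaving out 1 sample at a time, the 2 h difference ran from -0.021 to 0.66 for Fgf7, -0.12 to 0.27 for Fgf10, -0.18 to 0.28 for Igf1, -0.43 to 0.50 for Fgfr2 and -0.57 to 0.51 for Igf1r. At 30 min it ran from -0.10 to 0.56 for Fgf7, -0.16 to 0.81 for Fgf10, -0.14 to 0.29 for Igf1, -0.63 to 0.59 for Fgfr2 and -0.90 to 0.42 for Igf1r. For 2 h against 30 min it ran from -0.25 to 0.59 for Fgf7, -0.75 to 0.22 for Fgf10, -0.26 to 0.24 for Igf1, -0.52 to 0.69 for Fgfr2 and -0.40 to 0.93 for Igf1r. The table has no signal over background, so a floor for the ligands cannot be given.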
